A study of Mus musculus with 68 samples.

Results

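Pitx1, Lhx6, Lhx8, Barx1, Gsc, Msx1 and Msx2 encode homeodomain transcription factors that mark territories of the developing jaws in pharyngeal arch 1 (PA1), the arch that forms the upper and lower jaw. The 7 genes were taken by symbol from the 21948 genes of the deposited expression table. All 7 were found, and all 7 passed the filter on low values, which 18428 genes passed. RNA was sequenced from PA1 and from PA2, the next arch toward the tail, each dissected by hand from single mouse embryos of a CBA/Ca/J x C57BL/10 background at embryonic stages from E9.0 to E10.5 (E9.0, E9.5, E10.0, E10.5). Wildtype embryos were compared with embryos labelled Hoxa2-/-, the genotype label of a loss of the homeobox gene Hoxa2, and no treatment or other allele is named in the labels. In stage order, wildtype PA1 had 5, 5, 5 and 3 libraries and wildtype PA2 had 4, 4, 5 and 3. Arches labelled Hoxa2-/- had 4, 5, 5 and 3 libraries each for PA1 and PA2. The 68 libraries came from 35 embryos, and 33 embryos gave both arches.

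Jaw mesenchyme comes from cranial neural crest cells that settle in the arches and read signals from the surface epithelium and from the dorsoventral endothelin pathway. In PA1, Fgf8 from the oral ectoderm is known to induce Lhx6, Lhx8, Barx1 and Pitx1 in the mesenchyme below it, and Bmp4 from the distal ectoderm is known to induce Msx1 and Msx2 and to limit Barx1. Hoxa2 is the selector gene of PA2: PA1 forms without it, and its loss is known to turn the PA2 skeleton toward elements of the PA1 type, with Pitx1 among the genes it holds down in PA2.

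Recovered reads per library ran from 8912251 to 20619153, so that 3 reads, taken as the detection floor, were worth 0.14 to 0.328 CPM (a read count per library total, as scaled by the authors). Adjusted p-values below are from limma on log2(CPM + 1) with Benjamini-Hochberg adjustment over the 18428 genes, at a threshold of 0.05, and log2 differences are on that scale, where changes of low genes look smaller than they are. Hoxa2 itself did not fall with its label. In PA2 its mean was 28.7, 60.7, 97.7 and 132 CPM at the 4 stages in libraries labelled Hoxa2-/- and 22.3, 40.7, 47.5 and 58.3 CPM in wildtype, and all PA1 group means were 0.519 CPM or less. The part of the gene that the allele removes is not given in the sources used here, so the groups are named by their label throughout. Libraries also divided in a way the labels do not give: Ski ran from 26.3 to 108 CPM in the 24 wildtype libraries outside E10.0, from 9.52 to 15.5 CPM in the 10 wildtype libraries of E10.0 and from 9.28 to 22.8 CPM in the 34 libraries labelled Hoxa2-/-. Outside E10.0 this division and the label therefore cannot be told apart. Of the arch's defining markers, 7 of 7 for ectomesenchyme (such as Twist1 and Prrx1) and 8 of 8 for surface epithelium (such as Epcam and Trp63) were above 0 in every library. In whole arches, fewer cells of a type and less RNA per cell cannot be told apart.

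In wildtype embryos 17 of the 28 tests of the 7 jaw genes over 4 stages were called lower in PA2 than in PA1. None was called higher. That is 60.7% of the tests, against 13.1% of the tests of all genes, counted in either direction. Pitx1 was called at all 4 stages, and the LIM-homeobox genes Lhx6 and Lhx8 and the paralogs Msx1 and Msx2 were all called at E10.0 and E10.5. Barx1 was called at E9.0 and E9.5 and Gsc at E9.0, but the change of their arch difference from E9.0 to E10.5 did not pass (Barx1 1.88, adjusted p = 0.229, and 0.0114 with only the compared groups; Gsc 0.44, adjusted p = 0.705). At E9.0, 4 of the 7 genes were lower in PA2, where 8.53% of all genes tested were. The next stages gave counts of 3 of 7 (13.7% of all genes), 5 of 7 (1.43%) and 5 of 7 (0.651%). The median log2 difference of the 7 genes was -0.78, -0.57, -1.26 and -2.10 at the 4 stages, against -0.01, 0.01, -0.02 and -0.01 over all genes. In libraries labelled Hoxa2-/- the counts lower in PA2 were, in stage order, 4 of 7 (12.5% of all genes), 5 of 7 (3.47%), 5 of 7 (1.1%) and 5 of 7 (0.385%), with none higher. Summed ectomesenchyme markers were also lower in wildtype PA2 at the first 3 stages. In stage order they were 341.5 to 398 CPM against 516 to 588 CPM in PA1, 445 to 462.5 against 495 to 581 and 434 to 521 against 578 to 733, with 5, 1 and 2 of the 7 markers past the test. At E10.5 the sums overlapped, at 562.5 to 661 CPM in PA2 and 610 to 704 CPM in PA1, and limma called 0 of the 7. Cardiac muscle markers were higher in PA2 at E9.0 (6 of 6 past the test), with summed levels of 24.9 to 702 CPM in wildtype PA2 and 12.7 to 27.5 CPM in wildtype PA1. Of 8 surface epithelium markers, 2 were higher and 2 lower in wildtype PA2 at E9.0, and Krt14 was lower at all 4 stages. Their summed level was 417 to 470.1 CPM in PA2 and 503 to 589 CPM in PA1 at E10.5, without overlap. Pharyngeal endoderm markers, led by Pax1, summed higher in wildtype PA2 at each stage without overlap. In stage order they were 126 to 184 CPM against 45.7 to 77.7 in PA1, 135 to 183 against 66.6 to 73.7, 88.1 to 126 against 40.4 to 52.97 and 39.6 to 45.1 against at most 32.4, with 3, 3, 1 and 1 of the 5 called higher and Foxa2 called lower at E9.5 and E10.0. All 6 erythroid markers were called higher in PA2 at E9.0, as were 3 of 5 neural markers at each of the first 3 stages. The erythroid sums at E9.0 overlapped, at 3283 to 63560 CPM (median 4302) in wildtype PA2 and 1483 to 6385 CPM (median 2422) in wildtype PA1. The part of these cell types in the arch differences was not tested.

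**Figure D1:**
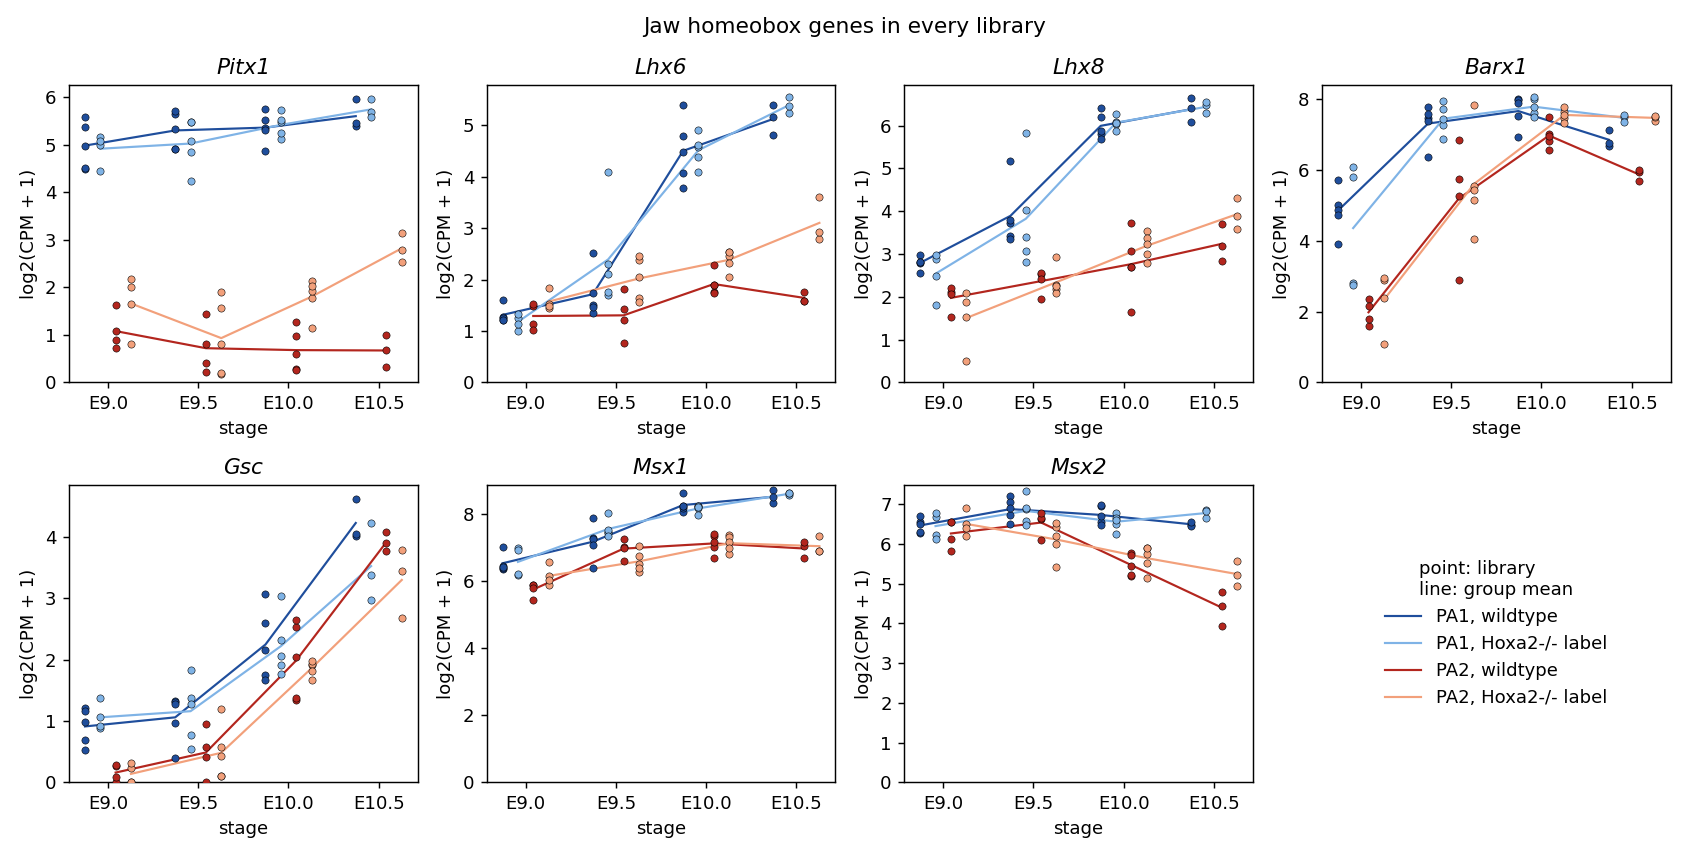
Level of each gene in every library as log2(CPM + 1) on the vertical axis against stage; each point is 1 library and lines join group means, blue for PA1 and red for PA2, dark for wildtype and light for the label Hoxa2-/-. Pitx1 in PA2 stays at or below 7.86 CPM while PA1 stays at or above 17.8 CPM. Mean Lhx6 and Lhx8 in PA1 are higher at E10.0 than at E9.5, a step tested with the label Hoxa2-/- only.

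Pitx1 (ENSMUSG00000021506, GRCm38 chr13:55825051-55836192, minus strand), a bicoid-type homeobox gene needed for normal lower jaw and hindlimb growth, showed the widest gap between the arches. Wildtype PA1 held 21.4 to 46.8, 29.1 to 51.45, 28.3 to 52.6 and 40.95 to 61.1 CPM in stage order. Wildtype PA2 held 2.11, 0.641, 1.103 and 0.866 CPM at E9.0 and 0.327, 0.165, 0.762 and 1.71 CPM at E9.5. At E10.0 it held 0.507, 0.218, 0.983, 0.208 and 1.41 CPM, and at E10.5 0.259, 1.00 and 0.610 CPM. The arches did not overlap at any stage, as in 8.81%, 8.56%, 2.09% and 9.6% of all genes in stage order. Several PA2 libraries were close to the detection floor, with 2 to 41 reads for the gene. The mean of PA2 was 3.67%, 1.88%, 1.63% and 1.29% of that of PA1 in stage order, and the second was 1.06% without PA2 replicate 5. The log2 differences were -3.90 ± 0.29 (SE), -4.58 ± 0.29, -4.68 ± 0.28 and -4.93 ± 0.36, with adjusted p-values of 6.69e-16, 9.46e-19, 2.1e-20 and 2.07e-16. Under the label Hoxa2-/- the PA2 mean was 7.94%, 3.46%, 6.12% and 11.7% of the PA1 mean (the second 2.27% without PA2 replicate 4), and the log2 differences of -3.25, -4.09, -3.61 and -2.92 passed the threshold at each stage. An antisense gene, Gm47071, named here for its position alone, overlaps Pitx1 on the other strand and was also higher in PA1, with group means of 4.43 to 9.65 CPM against 0.55 to 1.01 CPM in PA2. Whether counting used strand is not given in the sources used here, so reads of the 2 genes may be mixed where they overlap.

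Lhx6 (ENSMUSG00000026890, chr2:36081953-36105408, minus strand) and Lhx8 (ENSMUSG00000096225, chr3:154306294-154330659, minus strand) encode LIM-homeodomain factors of the oral jaw mesenchyme, from which teeth and palate form. Lhx6 gained its arch difference during the series, and that of Lhx8 widened in wildtype. Their upstream sequences are shown because the 2 genes moved together, as the 250 bases before a start site in the RefSeq table of GRCm38.p6, 5′ to 3′ on the minus strand. Capitals mark a match to TAATTG, the core read by many homeodomain proteins, whose first base is at position -229 from the start. RefSeq holds 3 start sites for Lhx6. Start site 3 was picked for printing because it holds a match, and start sites 1 and 2 held none of the 5 motifs searched. The printed Lhx6 window lies inside the gene as placed above, and that of Lhx8 lies partly inside its gene.
Lhx6, start site 3, chr2:36104061-36104310: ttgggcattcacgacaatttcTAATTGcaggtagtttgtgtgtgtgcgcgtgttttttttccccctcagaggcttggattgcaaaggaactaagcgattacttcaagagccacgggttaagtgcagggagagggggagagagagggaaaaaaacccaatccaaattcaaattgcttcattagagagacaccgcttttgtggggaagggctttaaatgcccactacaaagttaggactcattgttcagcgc
Lhx8, chr3:154330561-154330810: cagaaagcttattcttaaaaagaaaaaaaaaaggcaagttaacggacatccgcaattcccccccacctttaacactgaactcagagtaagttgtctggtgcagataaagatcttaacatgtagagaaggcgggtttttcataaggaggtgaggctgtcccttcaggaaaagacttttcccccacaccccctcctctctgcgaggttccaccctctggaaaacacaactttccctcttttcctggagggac
Of 32851 upstream sequences of this length in the table, 7.17% hold TAATTG on either strand. The other motifs searched on both strands were in neither of the printed windows. They were the homeodomain core TAATTA (in 4.84% of all upstream sequences) and the bicoid core TAATCC (6.25%). The other two were the Hox and Pbx motif TGATNNAT (7.68%) and the Meis motif TGACAG (15.9%).

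At E9.0 Lhx6 did not separate the arches, with 1.33 to 2.06 CPM in wildtype PA1 and 1.03 to 1.87 CPM in wildtype PA2 (log2 difference -0.02 ± 0.28, adjusted p = 0.971). At E9.5 wildtype PA1 held 1.56, 1.83, 1.78, 2.33 and 4.76 CPM and PA2 held 0.7004, 1.32, 1.68 and 2.54 CPM, and the ranges overlapped (adjusted p = 0.284). At E10.0 PA1 held 41.3, 15.9, 12.7, 21.2 and 26.9 CPM and PA2 held 3.86, 2.39, 2.73, 2.71 and 2.35 CPM. PA1 libraries were all above PA2 libraries from that stage on. The log2 difference was -2.59 ± 0.26 at E10.0 and -3.48 ± 0.34 at E10.5 (adjusted p = 2.1e-11 and 1.34e-11), where PA1 held 27.2, 41.1 and 35.1 CPM and PA2 2.02, 2.00 and 2.38 CPM. The change of the arch difference from E9.0 to E10.5 was itself past the threshold, at -3.46 (adjusted p = 8.5e-08) in wildtype and -2.68 (adjusted p = 6.15e-05) with the label Hoxa2-/-. Of the 7 genes, 3 had such a widening in wildtype, where 2.21% of all genes did, and 3 with the label, where 3.26% did. With the label, PA2 at E9.0 stood above PA1 for Lhx6, as in 9.7% of all genes. The values were 1.88, 1.73, 1.80 and 2.58 CPM against 1.37, 1.52, 0.996 and 1.198 CPM, a difference of 0.40 ± 0.29 that did not pass (adjusted p = 0.347).

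Lhx8 in wildtype PA1 at E9.0 held 4.90 to 6.89 CPM and PA2 held 3.296, 1.87, 3.64 and 3.19 CPM, without overlap, as in 8.81% of all genes. The log2 difference of -0.82 ± 0.35 did not pass the threshold (adjusted p = 0.0937), and it did with the embryo as a block (adjusted p = 0.0438). At E9.5 PA1 held 12.3, 12.95, 9.71, 9.14 and 35.0 CPM and PA2 held 4.81, 4.88, 2.90 and 4.35 CPM. The arches again did not overlap, as in 8.56% of all genes, with a log2 difference of -1.52 ± 0.35 (adjusted p = 0.000972). The differences at E10.0 and E10.5 were -3.23 ± 0.33 and -3.14 ± 0.43 (adjusted p = 3.16e-11 and 2.64e-07), with PA2 at 10.2% and 10.45% of PA1. The widening from E9.0 to E10.5 passed in wildtype (-2.33, adjusted p = 0.00644). Under the label Hoxa2-/- it was -1.47 (adjusted p = 0.0921, and 0.0341 with the embryo as a block). In libraries with that label the E9.0 difference of Lhx8 was -1.04 (adjusted p = 0.0315) with overlapping ranges. That call was lost when any of PA1 replicates 2, 3 and 4 or PA2 replicates 1 and 3 was left out (adjusted p = 0.0517 to 0.181) and with edgeR (adjusted p = 0.065).

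Barx1 (ENSMUSG00000021381, chr13:48662998-48666507, plus strand), a homeobox gene of the proximal, molar-forming jaw mesenchyme that is also known in PA2, was called lower in PA2 at E9.0 and E9.5 under both labels. Its upstream sequence is shown because of its base composition, 85.6% G and C, and because the gene stands out in the comparison of labels. It lies on the plus strand of GRCm38.p6, none of the 5 motifs was found in it, and so it carries no capitals. Its last bases lie inside the gene as placed above.
Barx1, chr13:48662786-48663035: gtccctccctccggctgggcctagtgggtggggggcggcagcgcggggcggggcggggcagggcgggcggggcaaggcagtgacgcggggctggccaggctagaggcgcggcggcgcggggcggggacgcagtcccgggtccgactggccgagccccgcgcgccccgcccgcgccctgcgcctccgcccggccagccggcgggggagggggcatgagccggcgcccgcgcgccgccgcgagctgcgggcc
At E9.0 wildtype PA1 held 31.5, 51.7, 14.0, 28.4 and 25.7 CPM and PA2 held 4.17, 2.03, 3.48 and 2.49 CPM, without overlap, as in 8.81% of all genes. The log2 difference was -2.87 ± 0.52 (adjusted p = 3.73e-05). At E9.5 PA1 held 219, 175, 81.8, 167 and 190 CPM and PA2 held 53.2, 37.5, 6.50 and 114 CPM, a wide spread with overlap. The log2 difference of -2.12 ± 0.52 passed (adjusted p = 0.00185), and without PA2 replicate 3, the lowest, it was -1.36 (adjusted p = 0.0563). PA2 reached 60.9% of PA1 at E10.0 and 49.8% at E10.5, where the differences of -0.69 and -0.99 did not pass (adjusted p = 0.481 and 0.943). At E10.5 the 3 PA2 libraries, at 50.8, 60.4 and 62.6 CPM, were all below the 3 PA1 libraries, at 103, 140 and 107 CPM, as in 9.6% of all genes. The difference passed when only these 2 groups were fitted (adjusted p = 0.00597). With the label Hoxa2-/- the PA2 mean was 13.9%, 40.8%, 84.4% and 99.9% of the PA1 mean. The first was 21.1% without PA1 replicate 2, and the second rested on embryo 4, being 19.3% without its PA2 library. The differences at E9.0 (-2.03, adjusted p = 0.00428) and E9.5 (-1.84, adjusted p = 0.00867) passed with overlapping ranges. The call at E9.0 was lost without PA1 replicate 2 (-1.45, adjusted p = 0.0552), that at E9.5 without PA2 replicate 1 (-1.45, adjusted p = 0.057) and with edgeR and DESeq2 (adjusted p = 0.0623 and 0.0726). The change of the arch difference from E9.0 to E10.5 with the label was 2.03 (adjusted p = 0.122) and passed with the embryo as a block (adjusted p = 0.0489), edgeR (adjusted p = 0.0446) and DESeq2 (adjusted p = 0.0229).

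Gsc (ENSMUSG00000021095, chr12:104471209-104473330, minus strand) encodes goosecoid, which acts in lower jaw and tympanic ring formation and depends on endothelin signalling. It had few reads at the early stages. In wildtype PA2 at E9.0 its 4 libraries had 4, 0, 1 and 4 reads (0.206, 0, 0.0552 and 0.217 CPM), and PA1 held 1.31, 0.434, 0.615, 0.966 and 1.23 CPM. All PA1 libraries were above all PA2 libraries, as in 8.81% of all genes, with a log2 difference of -0.75 ± 0.28 and an adjusted p of 0.0459. The call was lost when any of PA1 replicates 1, 4 and 5 or any PA2 replicate was left out (adjusted p = 0.0604 to 0.108). Labelled libraries gave an E9.0 difference of -0.92 ± 0.29 (adjusted p = 0.0146), and without PA1 replicate 2 it was -0.82 (adjusted p = 0.0543). At E9.5 the differences of -0.57 in wildtype and -0.68 with the label did not pass (adjusted p = 0.117 and 0.0864), and both did with the embryo as a block (adjusted p = 0.0379 and 0.0248). At E10.0 and E10.5 the arches overlapped under both labels, and PA2 held 79.7% and 78.3% of the PA1 mean in wildtype.

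Msx1 (ENSMUSG00000048450, chr5:37820485-37824583, minus strand) and Msx2 (ENSMUSG00000021469, chr13:53466884-53473074, minus strand) are paralogs that answer to Bmp signals in the distal mesenchyme. Their upstream sequences, both on the minus strand, are shown because these paralogs took different courses in time. Capitals in Msx2 mark TAATTA, a palindromic homeodomain core that 4.84% of the upstream sequences hold. Its first base is at position -187 from the RefSeq start. The Msx2 window, and with it this match, lies inside the gene as placed above. None of the 5 motifs was found in Msx1.
Msx1, chr5:37824586-37824835: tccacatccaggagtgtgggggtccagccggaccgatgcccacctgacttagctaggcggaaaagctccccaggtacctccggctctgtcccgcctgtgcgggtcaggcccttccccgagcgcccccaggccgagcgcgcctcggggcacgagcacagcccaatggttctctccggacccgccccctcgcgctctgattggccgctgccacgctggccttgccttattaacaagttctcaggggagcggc
Msx2, chr13:53472781-53473030: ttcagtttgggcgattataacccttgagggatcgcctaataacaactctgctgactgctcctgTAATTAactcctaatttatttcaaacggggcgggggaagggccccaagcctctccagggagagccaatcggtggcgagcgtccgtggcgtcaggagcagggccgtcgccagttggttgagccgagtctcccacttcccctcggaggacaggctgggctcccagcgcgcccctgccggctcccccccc
Msx1 was lower in wildtype PA2 at E9.0, with 57.7, 57.5, 54.6 and 42.4 CPM against 86.4, 81.2, 83.0, 127 and 84.9 CPM in PA1, without overlap, as in 8.81% of all genes (log2 difference -0.78 ± 0.19, adjusted p = 0.00183). At E9.5 the arches overlapped in wildtype (-0.21, adjusted p = 0.454). Under the label Hoxa2-/- they did not, as in 3.35% of all genes (-0.97 ± 0.18, adjusted p = 7.67e-05). There PA2 held 90.1, 106, 75.5, 129 and 82.3 CPM and PA1 held 175, 171, 181, 258 and 161 CPM. The difference between these labels in the E9.5 arch effect was -0.76 ± 0.26 and did not pass (adjusted p = 0.928). Msx1 then differed at E10.0 (-1.14 ± 0.18, adjusted p = 3.63e-06) and E10.5 (-1.54 ± 0.23, adjusted p = 2.81e-06) in wildtype, with PA2 at 45.4% and 34.3% of PA1.

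Msx2 showed no arch difference past the threshold in wildtype at E9.0 and E9.5, where PA2 held 88.1% and 79.0% of PA1 and the ranges overlapped. It was lower in PA2 at E10.0, with 42.4, 35.4, 35.9, 53.3 and 51.9 CPM against 122, 92.6, 102, 125 and 88.0 CPM in PA1. The ranges were apart, as in 2.09% of all genes (-1.26 ± 0.18, adjusted p = 5.64e-07). At E10.5 PA2 held 26.9, 14.4 and 20.8 CPM and PA1 88.4, 86.4 and 92.3 CPM (-2.10 ± 0.23, adjusted p = 1.19e-09). The arch difference widened between E9.0 and E10.5 by -1.89 in wildtype (adjusted p = 1.95e-05) and by -1.59 with the label Hoxa2-/- (adjusted p = 0.0006). For Msx1 the corresponding values were -0.76 (adjusted p = 0.158) and -1.14 (adjusted p = 0.0139, and 0.0626 with only the compared groups).

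**Figure D2:**
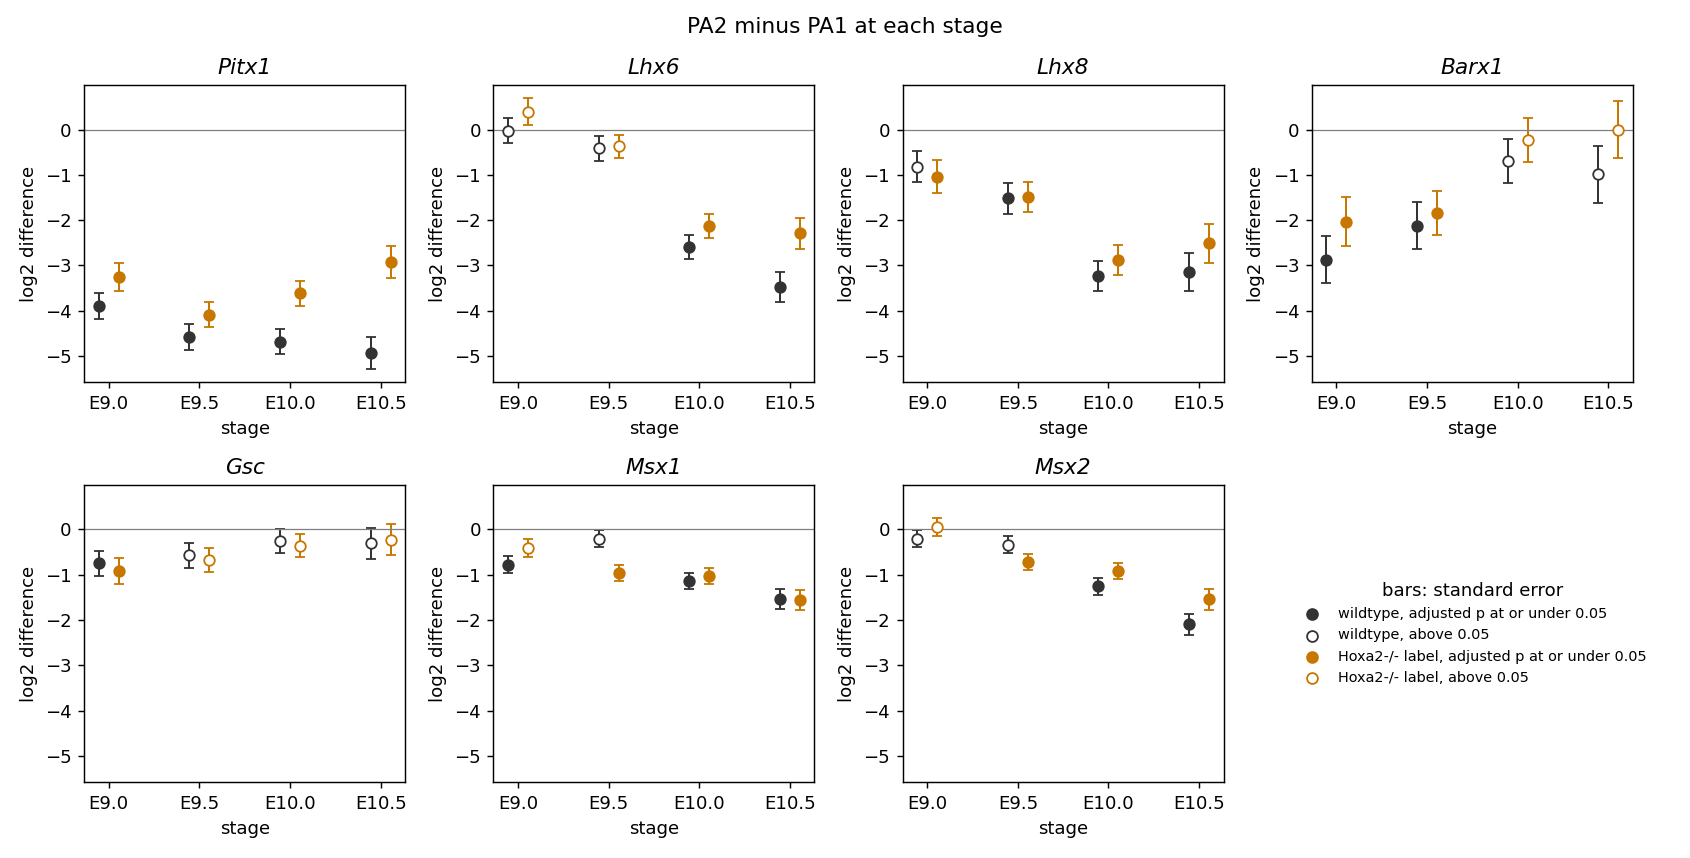
Log2 difference of PA2 minus PA1 on the vertical axis at each stage, in dark grey for wildtype and orange for the label Hoxa2-/-, with bars for the standard error of the limma fit and filled points for an adjusted p at or under 0.05. Pitx1 runs from -3.90 to -4.93 in wildtype, Lhx6 from -0.02 to -3.48, and Barx1 is at -2.87 at E9.0 with no filled point in wildtype at E10.0 and E10.5.

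Because PA1 and PA2 of an embryo were collected together, the arches could also be set side by side within 33 embryos. PA1 was above PA2 for Pitx1 and Lhx8 in 33 of 33 embryos, for Msx1 in 32, for Barx1, Gsc and Msx2 in 28 each, and for Lhx6 in 27. By label, PA1 was higher for Barx1 in 16 of 16 wildtype embryos and 12 of 17 labelled Hoxa2-/-, and for Lhx6 in 15 of 16 and 12 of 17. For Gsc these counts were 14 of 16 and 14 of 17, for Msx2 13 of 16 and 15 of 17, and for Msx1 15 of 16 and 17 of 17. The exceptions of Lhx6 were early ones: PA1 was higher in 3 of 8 embryos at E9.0 and in 8 of 9, 10 of 10 and 6 of 6 at the later stages. At E9.0 these were 3 of 4 wildtype embryos and 0 of 4 labelled Hoxa2-/-. Those of Gsc were late, with PA1 higher in 8 of 8, 9 of 9, 6 of 10 and 5 of 6 embryos in stage order. For Msx2 PA1 was higher in 4 of 8 embryos at E9.0, in 8 of 9 at E9.5 and in every embryo afterwards. Within embryos, Pitx1 in PA1 exceeded PA2 by 2.79 to 5.23 on the log2 scale.

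**Figure D3:**
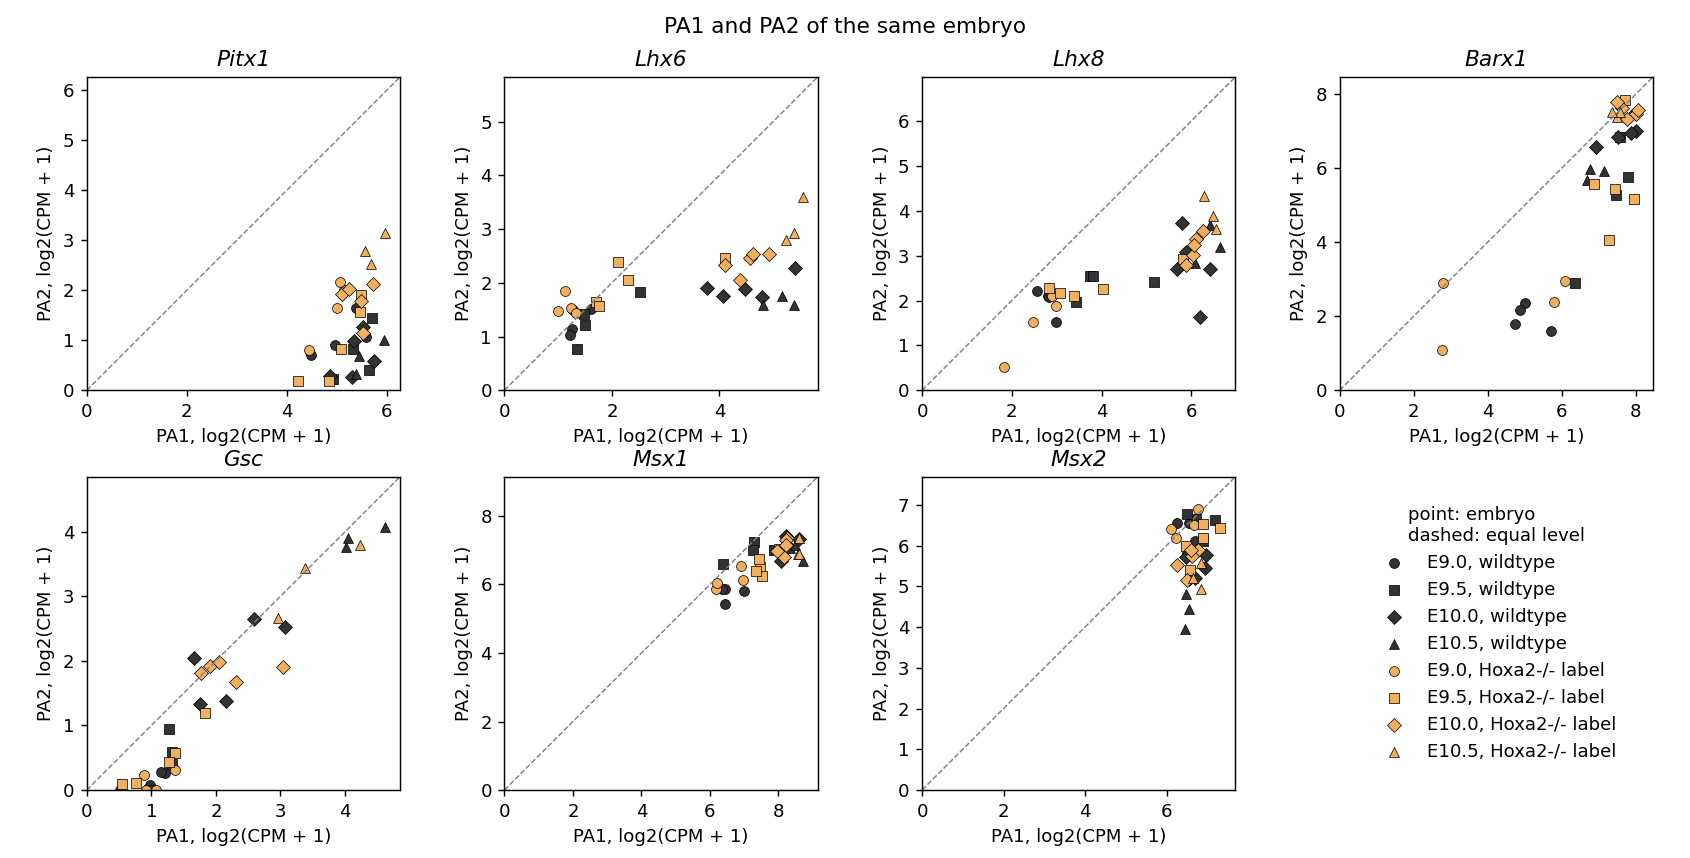
Each point is 1 of 33 embryos, with PA1 on the horizontal and PA2 on the vertical axis as log2(CPM + 1); shapes give the stage, dark grey marks wildtype and orange the label Hoxa2-/-, and the dashed line marks equal levels. All 33 embryos lie below the line for Pitx1 and Lhx8, and for Lhx6 the 4 embryos labelled Hoxa2-/- at E9.0 lie above it.

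The stage comparisons ask how each gene changed as the arches grew. In PA1 Lhx6, Lhx8, Gsc, Msx1 and Barx1 rose between E9.0 and E10.5, while Pitx1 and Msx2 did not pass the threshold. In wildtype PA2 Gsc, Barx1, Msx1 and Lhx8 rose and Msx2 fell. In PA2 labelled Hoxa2-/- Pitx1 and Lhx6 rose as well, Lhx6 from a mean of 1.996 CPM to 7.882 CPM. In wildtype PA1 5 of 7 genes were higher at E10.5 than at E9.0 (21% of all genes tested), and none was lower. In wildtype PA2 4 of 7 were higher (17.5%) and 1 was lower (19.4%). In labelled libraries 5 of 7 were higher in PA1 (14.8%), and in PA2 6 of 7 were higher (15.8%) and 1 lower (15.1%). In wildtype, E10.0 libraries stood on the other side of the division in Ski, so no wildtype contrast with E10.0 was made.

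Lhx6 rose in wildtype PA1 from a mean of 1.502 ± 0.314 CPM (SD, n = 5) at E9.0 to 34.5 ± 6.995 CPM (SD, n = 3) at E10.5 (log2 difference 3.81 ± 0.30, adjusted p = 1.65e-15). Lhx8 rose there by 3.59 ± 0.38 (adjusted p = 2.63e-11). Most of the rise came after E9.5, with 3.41 for Lhx6 and 2.49 for Lhx8 from E9.5 to E10.5. With the label Hoxa2-/- the step from E9.5 to E10.0 was 2.12 for Lhx6 (adjusted p = 1.42e-07) and 2.25 for Lhx8 (adjusted p = 7.97e-06), and the step from E10.0 to E10.5 did not pass for either. In wildtype PA2 Lhx6 stayed low (0.35, adjusted p = 0.4), and Lhx8 rose by 1.26 (adjusted p = 0.0095, and 0.0695 without PA2 replicate 3 of E10.5).

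Gsc rose late and in both arches. Its wildtype PA1 mean was 0.910, 1.14, 4.08 and 18.1 CPM in stage order, and its PA2 mean was 0.119, 0.439, 3.25 and 14.1 CPM. From E9.0 to E9.5 no difference passed in either arch. From E9.5 to E10.5 the log2 differences were 3.17 ± 0.30 in PA1 and 3.43 ± 0.31 in PA2 (adjusted p = 1.31e-12 and 8.33e-13). Barx1 rose early: from E9.0 to E9.5 by 2.46 in wildtype PA1 (adjusted p = 0.00126) and by 3.21 in wildtype PA2 (adjusted p = 0.000113), and from E9.5 to E10.5 neither arch passed. Over this first step 3 of 7 genes rose in wildtype PA1 (3.77% of all genes) and 2 of 7 in wildtype PA2 (4.05%), Barx1 and Msx1 being in both counts. The third in PA1 was Lhx8 (adjusted p = 0.0336). That call was lost without any of the 5 PA1 libraries of E9.0 or without PA1 replicate 1 or 5 of E9.5 (adjusted p = 0.0509 to 0.111). Msx1 in PA1 (0.64, adjusted p = 0.0221) was lost without PA1 replicate 2, 3 or 5 of E9.0 or 1 or 5 of E9.5 (adjusted p = 0.0512 to 0.0807).

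The Msx paralogs parted in PA2. Msx1 in wildtype PA2 rose from 53.0 ± 7.24 CPM (SD, n = 4) at E9.0 to 125 ± 21.2 CPM (SD, n = 3) at E10.5 (1.22, adjusted p = 6.54e-06). Msx2 fell over the same interval from 77.3 ± 18.5 CPM (SD, n = 4) to 20.7 ± 6.235 CPM (SD, n = 3), by a log2 difference of -1.86 ± 0.22 (adjusted p = 5.39e-10). With the label Hoxa2-/- Msx1 rose by 0.89 and Msx2 fell by 1.26 in PA2 (adjusted p = 0.000939 and 6.57e-06). In PA1 Msx1 rose by 1.98 in wildtype (adjusted p = 1.22e-11), and Msx2 gave 0.03 (adjusted p = 0.926). Over the 16 group means of log2(CPM + 1), Pearson's r between Msx1 and Msx2 was 0.26, a description over means that share libraries.

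Pitx1 in PA1 was not called between E9.0 and E10.5, though its mean was higher at E10.5. In wildtype it went from 32.1 to 48.3 CPM (0.62, adjusted p = 0.111, and 0.0185 with a pseudocount of 5). With the label Hoxa2-/- it went from 29.7 to 52.9 CPM (0.83), without overlap, as in 18.9% of all genes. Among other alternatives, the labelled difference passed with the embryo as a block (adjusted p = 0.0389), a pseudocount of 5 (0.00376) and only the compared groups (0.00286). In PA2 wildtype gave -0.41 (adjusted p = 0.35). PA2 labelled Hoxa2-/- rose by 1.16 ± 0.33 (adjusted p = 0.00519), without overlap, as in 14.6% of all genes. It went from 2.13, 3.04, 0.757 and 3.51 CPM at E9.0 to 7.86, 4.80 and 5.89 CPM at E10.5. In between, at E9.5, its libraries held 0.138, 1.96, 0.145, 2.73 and 0.764 CPM, and at E10.0 2.45, 3.37, 2.80, 3.09 and 1.22 CPM. The step between those stages was 0.87 (adjusted p = 0.0515, and 0.0377 with the embryo as a block).

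Embryo 4 labelled Hoxa2-/- at E9.5 stood apart from the other embryos of its group. In PA1 it held 16.1 CPM of Lhx6 against 2.24 to 3.94 in the other 4 embryos and 55.5 CPM of Lhx8 against 6.06 to 15.3. It also held 258 CPM of Msx1 against 161 to 181. In PA2 it held 228 CPM of Barx1 against 15.6 to 46.3, and Msx2, the gene that falls with stage there, was lowest in it, at 41.5 CPM against 62.65 to 90.9. The E10.0 libraries of the same label held 16.1 to 29.3 CPM of Lhx6 and 58.1 to 76.3 CPM of Lhx8 in PA1 and 161 to 219 CPM of Barx1 in PA2. From E9.0 to E9.5, 4 of 7 genes were called higher in PA1 labelled Hoxa2-/- (1.86% of all genes). Without both arches of this embryo Lhx6 (0.79, adjusted p = 0.0618) and Lhx8 (0.79, adjusted p = 0.226) were no longer called. Lhx8 was also lost without PA1 replicate 1 or 3 of E9.0 or 5 of E9.5 (adjusted p = 0.0562 to 0.2). The cause was not tested.

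The comparison of labels sets libraries labelled Hoxa2-/- against wildtype in each arch, and at the stages other than E10.0 it is also a comparison across the division in Ski. In PA2 at E10.5, Pitx1, Lhx6 and Msx2 were higher in libraries labelled Hoxa2-/- than in wildtype, and each labelled library held more Barx1 than every wildtype library, as 18.6% of all genes did, without passing the test. In PA1 no gene passed at any stage. In PA2 at E10.5 3 of 7 genes were called higher, where 6.48% of all genes were, and none was called lower. At the other stages of PA2 none of the 7 was called, where 14%, 4.48% and 0.0814% of all genes were in stage order. Over the 28 tests of the 7 genes in PA2, edgeR called 3 and DESeq2 4, and 9 had an unadjusted p at or under 0.05 in limma. Of all genes 27.6%, 18.4%, 7.71% and 23.9% had such an unadjusted p in stage order. In PA1 the share of all genes called was 2.08%, 23.6%, 0% and 3.05% in stage order. For PA1 at E10.0 edgeR and DESeq2 also called 0 genes, and 424 had an unadjusted p at or under 0.05. Of the 28 tests of the 7 genes in PA1, 3 had an unadjusted p at or under 0.05, and edgeR and DESeq2 each called 1. That unadjusted limit was met by 14.2%, 36%, 2.3% and 15.2% of all genes in stage order.

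Pitx1 in PA2 at E10.5 measured 7.86, 4.80 and 5.89 CPM with the label Hoxa2-/- and 0.259, 1.00 and 0.610 CPM in wildtype, or 60 to 103 reads against 5 to 19. The ranges did not overlap, as in 18.6% of all genes, with a log2 difference of 2.15 ± 0.36 (adjusted p = 3.54e-05). Its overlapping antisense gene Gm47071 did not move with it, at 0.761 ± 0.253 CPM (SD, n = 3) with the label and 0.925 ± 0.112 CPM (SD, n = 3) in wildtype. At E10.0, where both labels lie on the same side of the division in Ski, the 5 labelled libraries held 1.22 to 3.37 CPM and the 5 wildtype ones 0.208 to 1.41 CPM. They overlapped through wildtype replicate 5 and labelled replicate 5. The log2 difference was 1.12 ± 0.28 (adjusted p = 0.106, unadjusted 0.000139), and it passed without wildtype replicate 5 (1.27, adjusted p = 0.0467) and with DESeq2 (adjusted p = 0.0421). Even the highest labelled PA2 library stayed below the lowest PA1 library of either label, 17.8 CPM.

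Lhx6 in PA2 at E10.5 measured 11.1, 5.92 and 6.59 CPM with the label Hoxa2-/- and 2.02, 2.00 and 2.38 CPM in wildtype. All labelled libraries were above all wildtype ones, as in 18.6% of all genes (1.46 ± 0.34, adjusted p = 0.00245). Lhx8 gave 0.69 ± 0.43 and did not pass (adjusted p = 0.325), at 19.0, 13.8 and 11.01 CPM with the label and 6.16, 8.11 and 11.9 CPM in wildtype, which overlapped. Msx2 measured 36.0, 29.7 and 46.4 CPM with the label and 26.9, 14.4 and 20.8 CPM in wildtype, apart by a narrow margin (0.84 ± 0.23, adjusted p = 0.0123). The Msx2 call was lost without wildtype replicate 2 (0.62, adjusted p = 0.144) or labelled replicate 3 (0.68, adjusted p = 0.105). Summed ectomesenchyme markers in PA2 were 599 to 645 CPM with the label and 563 to 661 CPM in wildtype at E10.5. At E10.0 they were 501 to 606 and 434 to 521 CPM, without a test of their part in the values. At E10.5 in PA2 the endothelial markers summed to 175.5 to 215 CPM with the label and 151 to 164 CPM in wildtype, with 0 of 6 called, and the neural markers to 9.92 to 12.9 against 14.5 to 22.4 CPM, with Tubb3 alone of 5 called, lower. The part of these in the E10.5 values was not tested.

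Barx1 in PA2 at E10.5 measured 167, 181 and 184 CPM with the label Hoxa2-/- and 50.8, 60.4 and 62.6 CPM in wildtype, with no overlap and a small spread. The log2 difference of 1.60 ± 0.63 did not pass (adjusted p = 0.0952). The fit pools the spread of all groups, and Barx1 spread widely in some, such as labelled PA2 at E9.5 (73.4 ± 87.2 CPM, SD, n = 5). Fitted on these 2 groups alone, the difference had an adjusted p of 0.00013. In PA1 at E10.5 Barx1 was also higher in each labelled library, as 14.4% of all genes were, at 180, 188 and 165 CPM against 103, 140 and 107 CPM (0.62, adjusted p = 0.719, and 0.027 with only the compared groups). At E10.0, away from the division in Ski, PA2 held 161 to 219 CPM with the label and 94.9 to 180 CPM in wildtype, which overlapped (0.58, adjusted p = 0.796). Gsc was lower with the label at E10.5 in both arches without passing, by -0.70 in PA1 and -0.62 in PA2 (adjusted p = 0.3 and 0.254). Msx1 gave 0.07 in PA2 at E10.5 (adjusted p = 0.897).

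In PA1 the nearest to a call was Lhx6 at E9.5, at 5.60 CPM with the label and 2.45 CPM in wildtype on average (0.68 ± 0.26, adjusted p = 0.0505). It passed with the embryo as a block (adjusted p = 0.0417), and its labelled mean includes the 16.1 CPM of embryo 4. The test of whether the label difference itself differed between PA2 and PA1 called none of the 7 genes at any stage, where 0%, 0.0109%, 0.0163% and 0.038% of all genes were called. Of its 28 tests 4 had an unadjusted p at or under 0.05, as did 5.88%, 4.42%, 1.53% and 3.27% of all genes in stage order. With edgeR and DESeq2 0 of the 28 were called. The largest value was that of Pitx1 at E10.5, 2.01 ± 0.50 (adjusted p = 0.229). It passed with the embryo as a block (adjusted p = 0.021) and with only the compared groups (adjusted p = 0.0246), where Barx1 at 0.98 passed as well (adjusted p = 0.0347).

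**Figure D4:**
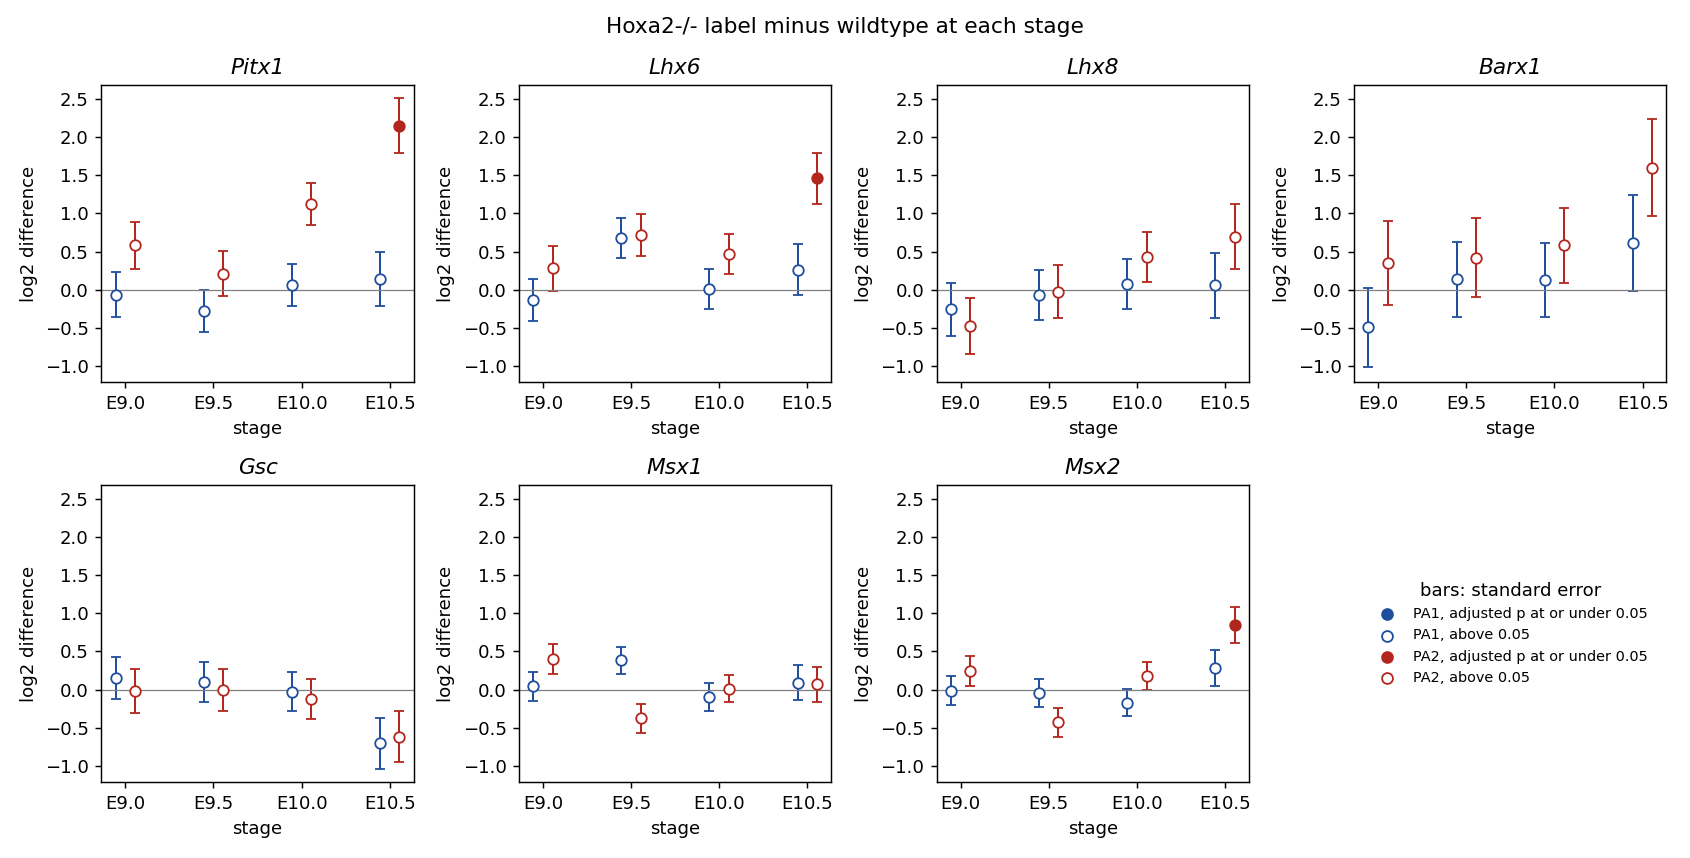
Log2 difference of the label Hoxa2-/- minus wildtype on the vertical axis at each stage, blue for PA1 and red for PA2, with bars for the standard error of the limma fit and filled points for an adjusted p at or under 0.05. Filled points appear in PA2 at E10.5 only, for Pitx1 at 2.15, Lhx6 at 1.46 and Msx2 at 0.84.

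The 7 genes were compared in their pattern over the 16 group means of log2(CPM + 1), as a description over groups that share embryos and libraries. Lhx8 was alike to Msx1 (Pearson's r = 0.95) and to Lhx6 (0.94), and Lhx6 to Msx1 (0.90), while Msx2 had -0.40 with Gsc and -0.03 with Barx1. Across the whole table, the genes most like Pitx1 were the keratin gene Krt14 (0.918) and the gap junction gene Gja1 (0.909). For Lhx6 they were AI606473 (0.975) and the T-box gene Tbx2 (0.967), and for Lhx8 Dapl1 (0.978) and AI606473 (0.964). Barx1 was most like the kinase gene Stk26 (0.974) and Lpgat1 (0.971), and Gsc most like Nap1l2 (0.982) and Cbfb (0.97). Msx1 was most like the forkhead gene Foxf2 (0.954), next to Lhx8, and Msx2 most like Dok5 (0.96) and the T-box gene Tbx3 (0.929). Highest group means were 20.2 CPM for Krt14, 40.8 CPM for AI606473 and 60.1 CPM for Tbx3.

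Of 11 signals known upstream of the jaw genes, 5 were higher and 1 lower in wildtype PA2 than in PA1 at the first stage, then 5 and 1, 2 and 2, and 0 and 1. Of all genes tested 10.2%, 12.7%, 4.51% and 0.868% were higher in stage order, and 8.53%, 13.7%, 1.43% and 0.651% lower. The one at E10.5 was Fgf8, the ectodermal signal that induces Lhx6, Lhx8 and Barx1. It was higher in PA2 at E9.0 (33.5 against 21.5 CPM, 0.62, adjusted p = 0.0217) and lower at each later stage, by -0.66, -1.44 and -1.88 (adjusted p = 0.0114, 5.92e-08 and 9.85e-08), reaching 4.81 against 20.2 CPM at E10.5. Edn1, the endothelin ligand of the ventral arch, was higher in PA2 at E9.5 (0.75, adjusted p = 0.0181) and E10.0 (1.25, adjusted p = 9.29e-05). Tgfb2, a TGF-beta ligand, was higher in PA2 at the first 3 stages, from 1.95 at E9.0 to 1.07 at E10.0. By limma, none of the 11 passed in the comparison of labels in PA2 at any stage.

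Of 9 dorsoventral factors of the Dlx and Hand group, none was higher in wildtype PA2, and 4, 1, 0 and 0 were lower in stage order. Dlx6, a ventral Dlx gene, was lower at E9.0 (-0.91, adjusted p = 0.00389) and E9.5 (-0.67, adjusted p = 0.0303). Of 24 other homeobox and jaw factors, 23 passed the filter, and in stage order 3, 6, 6 and 4 were higher and 4, 6, 8 and 8 lower in wildtype PA2, to be read against the same shares of all genes. Tbx22, a palate gene, was lower at E10.0 and E10.5 (-2.12 and -4.00), the stages at which Lhx6 was. Meis1 (1.39 to 1.91), a Hox cofactor, and Pax9 (1.43 to 1.95), a pouch and jaw gene, were higher in PA2 throughout. In PA2 at E10.5, 1 of the 9 Dlx and Hand genes, Dlx2, was higher with the label Hoxa2-/-, as were 2 of the 23 others, Alx4 and Prrx2. Meis1, Meis2 and Pax9 were among those that were lower. Of all genes tested, 6.48% were higher and 3.85% lower there. At E10.0 Meis2 alone of these lists passed, lower with the label (0.0814% of all genes passed), and at E9.5 Meis1 and Meis2 did (4.48%). The genes called in this comparison of labels were named after their values were seen.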

How the data were processed

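Libraries were made from poly(A) RNA of single arches with SMART-seq v4 and Nextera XT, per the labels' protocols. The submitters' processing notes name bcl2fastq 2.18, TopHat2 2.1.1, mm10 and R 3.3.2, and the counting program and its use of strand are not given in the sources used here. The authors deposited a signal per gene, read counts scaled by library size (column totals 926298 to 1051959), called CPM here for its scale. Within a tolerance of 0.01 reads, 100% of values were whole multiples of 1 read, so read counts were recovered.

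limma 3.58.1 (R 4.3.3, trend, two-sided, Benjamini-Hochberg) was fitted to log2(CPM + 1) with 16 group means over 68 libraries, for genes at 1 CPM or more in at least 3 libraries. The planned test was written for CPM, and the same test was kept for this signal. On the recovered reads edgeR 4.0.16 called 0 to 8115 genes per contrast and DESeq2 1.42.0 called 0 to 8282. Replicates were separate embryos, and no 2 libraries were identical (116 replicate pairs, chi-square per degree of freedom 5.84 to 95.9). Per the series text, PA1 and PA2 with the same number came from 1 embryo. Deviations of these 33 pairs correlated with a median of 0.35 (30 over 0.1), against -0.12 for 116 pairs of different embryos, and the embryo was used as a block in an alternative (limma duplicateCorrelation, 0.22).

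The other alternatives were pseudocounts of 0.25 and 5, a filter of 5 CPM or none, median-of-ratios scaling, only the compared groups, and each replicate left out. The genes and lists were chosen with earlier results of these data known. Beside the 7 genes, the text names the 2 genes most alike to each over group means (at least 5 CPM in a group), and, per list, the 2 in each direction with the largest mean arch difference among those past the threshold at 2 or more stages. Tables were made with Python 3.11.15, pandas 2.3.3 and numpy 2.4.6, and the tests were tried on simulated data. Gene positions are from GENCODE on GRCm38. Some genes of the patterning and marker lists enter the counts but are not reported by name here.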

Additional observations from a re-analysis of the deposited data

Results flagged for a closer look

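A library far from the others of its group, by Dixon's criterion, was found 12 times in 84 pairs of gene and group. The criterion allows about 1 in 20 by chance for independent values. These pairs share libraries, so the count cannot be set against that rate. Of the 12, 5 belong to embryo 4 labelled Hoxa2-/- at E9.5. Its PA1 was highest in Lhx6 (16.11 CPM), Lhx8 (55.51 CPM) and Msx1 (257.8 CPM), and its PA2 in Barx1 (227.9 CPM) and Lhx8 (6.61 CPM). Wildtype PA1 replicate 5 at E9.5 was highest in Lhx6 (4.764 CPM) and Lhx8 (34.99 CPM). The other highest libraries were wildtype PA1 replicate 2 at E9.0 in Lhx6 (2.06 CPM), wildtype PA2 replicate 1 at E10.0 in Lhx6 (3.863 CPM), and wildtype PA1 replicate 4 at E9.0 (127.3 CPM) and replicate 1 at E10.0 (390.7 CPM) in Msx1. PA1 replicate 5 labelled Hoxa2-/- at E10.0 was lowest in Msx1 (248.2 CPM).

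The arch difference itself differed between E10.5 and E9.0, by an interaction term in limma, for Lhx6 (-3.46), Lhx8 (-2.33) and Msx2 (-1.89) in wildtype. With the label Hoxa2-/- it did for Lhx6 (-2.68), Msx1 (-1.14) and Msx2 (-1.59). The Msx1 call was lost with only the compared groups (adjusted p = 0.0626).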

How the results depend on the processing

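No called difference changed sign under an alternative, and 159 values that were not past the threshold in either fit did. The count of genes called for the label in PA1, 0 in limma, was 1 with a pseudocount of 0.25, a filter of 5 CPM, the replicate block, edgeR, DESeq2 or only the compared groups, and 0 to 2 with a replicate left out. The count for the label by arch difference, also 0, was 1 with the replicate block and 2 with only the compared groups. Of 252 gene and contrast pairs, the replicate block made 9 pass and lost 0. The 9 are given beside their results, and the block changed no other call. Only the compared groups made 11 pass and lost 16, edgeR 2 and 5, DESeq2 6 and 3, a pseudocount of 0.25 6 and 2, and a pseudocount of 5 4 and 3. Fits of only the compared groups lost the arch calls under the label of Barx1 (adjusted p = 0.157 at E9.0 and 0.0719 at E9.5), Lhx8 (0.12 and 0.0971) and Msx2 at E9.5 (0.0731). The call of Gsc in wildtype at E9.0 was lost with a pseudocount of 5 (adjusted p = 0.348), with no filter (0.0512) and without the 8 libraries named next (0.132). Chosen after seeing the data, leaving out 8 libraries with yolk sac or blood transcripts made 1 pass and lost 5, and leaving out embryo 4 made 9 pass and lost 2. At 3 reads, or 0.14 to 0.328 CPM, the depth limits what can be said of Pitx1 and early Gsc in PA2. In PA1 at E9.5 the higher Lhx6 level under the label passed without wildtype replicate 5 (0.88, adjusted p = 0.011) or labelled replicate 1 (0.85, 0.0194), 2 (0.75, 0.0443) or 3 (0.83, 0.0255), and with edgeR (0.0094) and DESeq2 (0.00492). Msx1 there passed without wildtype replicate 5 (0.56, adjusted p = 0.0146, against 0.38 and 0.11 with all libraries).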
